A study of Mus musculus with 4 samples.

Results

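The genes described here make ribosomes. They are 42 genes of ribosome biogenesis and the nucleolus, taken by name, and every probe set annotated to exactly 1 of their symbols was used. Of these 42 genes, 41 had such a probe set, 85 probe sets in all, out of 18193 genes on the array with at least 1 such probe set. Mrto4, a large subunit assembly factor, shares its probe set with its pseudogenes in the annotation and has no value. The known role of each gene placed it in an assembly step, with 6 measured genes of RNA polymerase I (Pol I) and general nucleolar factors, 8 of the small nucleolar ribonucleoproteins (snoRNPs), 12 of the small subunit and 15 of the large subunit.

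Total RNA came from 4 mouse liver tumor samples, each on its own Affymetrix mouse whole-genome array. Liver progenitor cells transplanted into the livers of recipient mice had formed the tumors, and all samples carried the HrasV12 oncogene and a tet-off short hairpin RNA against p53. The p53 on group (2 samples) had doxycycline in the chow for 8 days, which turns the hairpin off. The p53 off group (2 samples) had doxycycline for 0 days, so that the hairpin was made. There was no sample with doxycycline but without the hairpin, so restored p53, the drug and the elapsed time cannot be told apart. The labels do not say whether the 2 samples of a group were separate tumors or animals, and the p-values measure the spread between these samples only.

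As background, ribosome production begins in the nucleolus, where Pol I transcribes the long precursor of the ribosomal RNAs. SnoRNPs guide the 2′-O-methylation and pseudouridylation of that precursor, and large sets of assembly factors fold and cut it while ribosomal proteins bind. The transcription factor MYC is a well known activator of these genes, and growing tumor cells make many ribosomes. The nucleolus also bears on p53, since ribosomal proteins set free when assembly fails can bind MDM2, the ubiquitin ligase of p53.

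Values are log2 values on the scale of the robust multi-array average (RMA), so that a difference of 1 is a 2-fold difference. Where a gene had several probe sets, the brightest on average gave its value. A call means a limma p-value under 0.05 after Benjamini-Hochberg adjustment across the 18193 genes. In counts, fell or lower and rose or higher mean called in that direction. Across all genes 28.7% were called, 14.7% lower and 14.0% higher in p53 on, so 51.2% of the calls were lower. Median centring of the arrays made that share 62.1%, and spike-in scaling, which sets the arrays level by their added control RNAs, 29.97%. The array medians were 7.39 and 7.39 in p53 on and 7.34 and 7.29 in p53 off. As a check of the labels, the p53 target gene Cdkn1a was at 12.99 and 13.01 in p53 on, against 11.68 and 11.45 in p53 off. The hairpin's own target was not analysed here. RNA quality was read from the beta-actin controls, whose 3′ minus 5′ difference was 0.478 and 0.492 in p53 on and 0.395 and 0.262 in p53 off, and its part in the results was not tested.

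The ribosome assembly genes were lower in p53 on as a block. All 41 measured genes had a negative change, as did 8234 of all 18193 genes. Of the 41 genes 36 fell (87.8%), against 14.7% of all genes, and 0 rose. The genes were mostly bright, with a median level of 9.84, and 22.4% of all probe sets with a mean of at least 8 fell. They were chosen with earlier results of these data known, so the shares describe the list and test nothing. The largest falls were those of Nop56, Nop58, Nolc1 and Dkc1, all of them snoRNP genes and each more than 2.5-fold lower. The median change of the 41 genes was -0.67, against 0.02 over all genes. For 39 of them both p53 on arrays lay below both p53 off arrays, which was so for 30.4% of all genes. Falls of at least 2-fold were found for 6 members, against 2.55% of all genes. The 6 were the 4 snoRNP genes, the large subunit gene Nip7 and the small subunit gene Wdr43. Spike-in scaling left 30 members that fell, median centring 38 and renewed quantile normalization 36. RMA had already equalised the arrays by quantiles. The 3 scalings moved the median change of all genes by 0.13, -0.07 and -0.02, too little to turn a median of -0.67, so they do not test the group's direction. Without p53 off replicate 1 or 2 the count was 23 or 18. The spread then came from the p53 on pair alone, with the lone p53 off array assumed to vary like it, and the median change was -0.73 or -0.62.

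**Figure D1:**
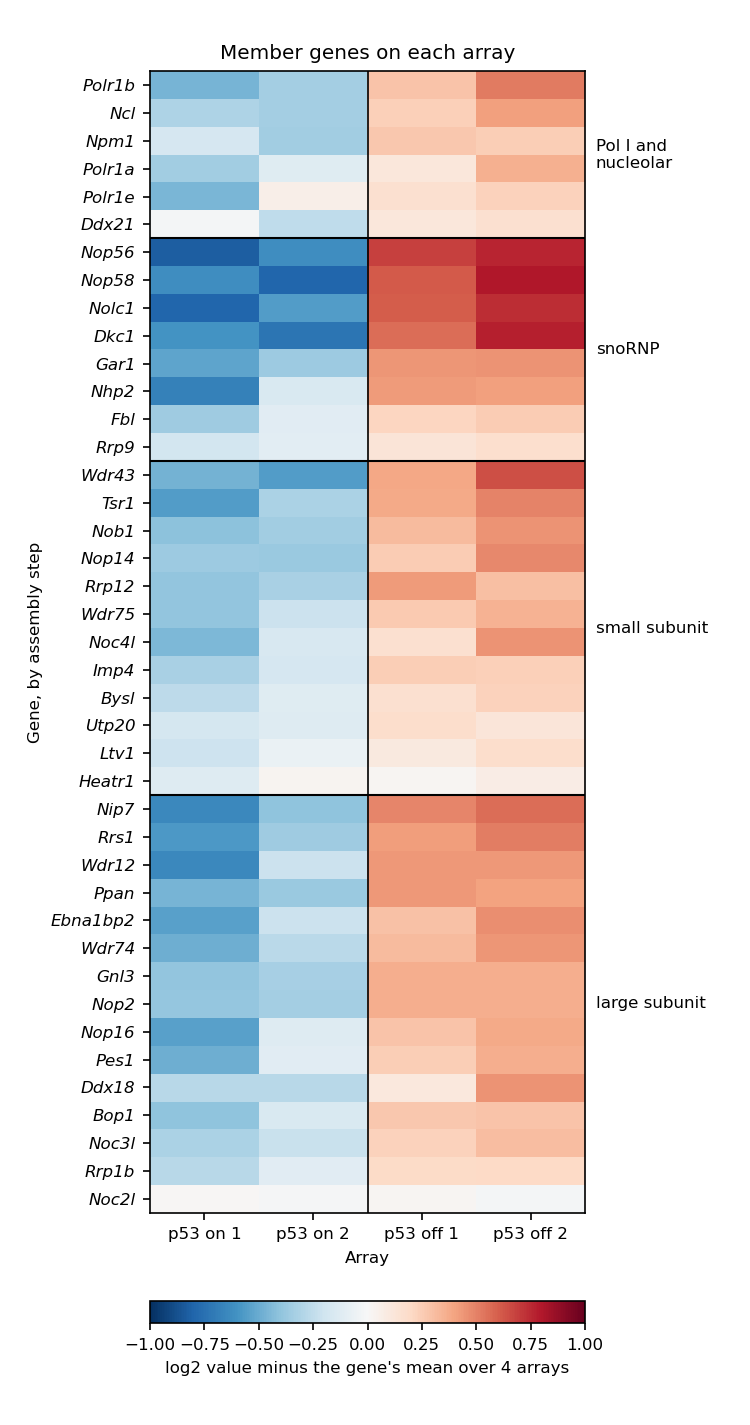
Each row is a member gene and each column 1 array, with both p53 on arrays left of both p53 off arrays. Colour gives the log2 value minus the gene's mean over the 4 arrays, in 4 blocks by assembly step. The p53 on columns are the lower ones in nearly every row, most of all in the snoRNP block, while Heatr1 and Noc2l are nearly white.

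Promoter sequences are shown for the 4 members with the largest fall and for the 3 with the largest fall whose promoter window holds the E-box CACGTG, the site that MYC with MAX is known to bind. Each runs 5′ to 3′ along the gene, from 120 bases before the RefSeq start to 30 bases after it. Capitals mark CACGTG and the ETS core CCGGAAG, each searched on both strands. The windows are on build GRCm38.p6, all on the plus strand: Nop56 at chr2:130274292-130274441, Nop58 at chr1:59684886-59685035, Nolc1 at chr19:46075727-46075876, Dkc1 at chrX:75095734-75095883, Wdr43 at chr17:71616095-71616244, Tsr1 at chr11:74897960-74898109 and Nop2 at chr6:125131763-125131912.
Nop56: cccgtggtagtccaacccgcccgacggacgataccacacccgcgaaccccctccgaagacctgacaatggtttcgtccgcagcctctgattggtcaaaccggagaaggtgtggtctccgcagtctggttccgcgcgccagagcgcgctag
Nop58: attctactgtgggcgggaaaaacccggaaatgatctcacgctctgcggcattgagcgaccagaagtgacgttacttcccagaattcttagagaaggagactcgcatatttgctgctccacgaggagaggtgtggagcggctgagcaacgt
Nolc1: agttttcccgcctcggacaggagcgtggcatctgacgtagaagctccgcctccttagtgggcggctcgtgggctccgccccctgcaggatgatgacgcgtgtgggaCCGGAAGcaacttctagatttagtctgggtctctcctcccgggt
Dkc1: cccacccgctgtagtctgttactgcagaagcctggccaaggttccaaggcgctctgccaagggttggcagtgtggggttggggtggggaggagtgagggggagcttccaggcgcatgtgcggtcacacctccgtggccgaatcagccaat
Wdr43: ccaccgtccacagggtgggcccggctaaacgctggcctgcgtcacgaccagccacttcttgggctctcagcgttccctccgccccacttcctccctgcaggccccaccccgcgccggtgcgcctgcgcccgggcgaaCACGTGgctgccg
Tsr1: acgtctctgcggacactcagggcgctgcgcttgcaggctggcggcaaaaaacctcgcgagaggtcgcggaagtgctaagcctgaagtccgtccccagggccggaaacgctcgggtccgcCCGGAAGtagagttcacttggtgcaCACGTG
Nop2: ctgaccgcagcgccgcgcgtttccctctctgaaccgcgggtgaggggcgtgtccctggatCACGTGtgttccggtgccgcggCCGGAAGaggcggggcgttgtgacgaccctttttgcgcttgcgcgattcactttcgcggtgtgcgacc

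The E-box stood 18 bases after the start in Wdr43, 25 after it in Tsr1 and 60 before it in Nop2, counted to its first base. Neither motif was found in these windows of Nop56, Nop58 and Dkc1. Over the full window of the RefSeq table (250 bases before the start and 50 after it, the first window listed for a gene), 36 of the 41 measured members had a sequence. CACGTG was in 7 of the 36 (19.4%), against 7.24% of all 27025 genes in the table and 9.02% of the genes measured on the array. CCGGAAG was in 14 of the 36 (38.9%), against 9.12% of all genes and 13.8% of the measured ones. The related E-box CACGCG was in 10 (27.8%), against 14.4% of the measured genes. The GC box GGGCGG was in 28 (77.8%), against 54.0% of them, and TATAAA in 3 (8.33%), against 9.87%. The 7 members with CACGTG had a median change of -0.60 and the 29 without it one of -0.73. These are matches of letters and say nothing of binding in the tumors.

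Of the 4 steps, the 8 snoRNP members had the largest median change. All 8 fell, with a median of -1.11. Box C/D snoRNPs carry the methyltransferase, and 3 of their core protein genes are among the members. Nop56, a core scaffold protein of these particles, was at 9.47 and 9.67 in p53 on, against 10.98 and 11.06 in p53 off. It fell by 1.45 ± 0.096 (SE, n = 2 each; limma adjusted p = 0.000761). Its paralog Nop58, which pairs with it in the particle, was at 9.48 and 9.30 in p53 on, against 10.72 and 10.90 in p53 off, and fell by 1.41 ± 0.10 (limma adjusted p = 0.000959). The gaps between the groups were several times the difference within either pair for both scaffold genes. Fbl encodes fibrillarin, the methyltransferase itself, and its values were 11.24 and 11.49 in p53 on and 11.81 and 11.86 in p53 off. It fell by 0.47 ± 0.10 (limma adjusted p = 0.0226), a smaller change than those of its partners. The interval of its change (-0.73 to -0.21, 95%) does not overlap that of Nop58 (-1.68 to -1.15). Rrp9, a protein of the U3 snoRNP that guides the first cuts of the precursor, had values of 9.45 and 9.53 in p53 on and 9.76 and 9.80 in p53 off, the smallest fall of the step at 0.29 ± 0.076.

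Box H/ACA snoRNPs carry the pseudouridine synthase, and 3 of their core genes are among the members. Dkc1 encodes dyskerin, the synthase, which is also part of telomerase. It was at 10.40 and 10.27 in p53 on, against 11.56 and 11.78 in p53 off, and fell by 1.33 ± 0.11 (limma adjusted p = 0.00113). Gar1, a core protein of the particle, was at 10.55 and 10.71 in p53 on, against 11.51 and 11.52 in p53 off. Nhp2, another core protein, was at 10.85 and 11.37 in p53 on, against 11.95 and 11.94 in p53 off. Both p53 on arrays lay below both p53 off arrays for each of the 3 genes, with the widest spread for Nhp2 within p53 on. The changes of Gar1 and Nhp2 were -0.89 ± 0.087 and -0.83 ± 0.17. Nolc1 encodes Nopp140, a chaperone that binds both kinds of snoRNP. It was at 8.76 and 9.00 in p53 on, against 10.17 and 10.30 in p53 off, and fell by 1.35 ± 0.11 (limma adjusted p = 0.00118). The calls of Fbl, Rrp9 and Nhp2 were lost without p53 off replicate 1 and without p53 off replicate 2, leaving 5 of 8, and that of Rrp9 also without either p53 on array. Spike-in scaling ended the calls of Fbl and Rrp9, and Rrp9 lost its call with the replicate number as a block and with limma's trend and robust options.

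**Figure D2:**
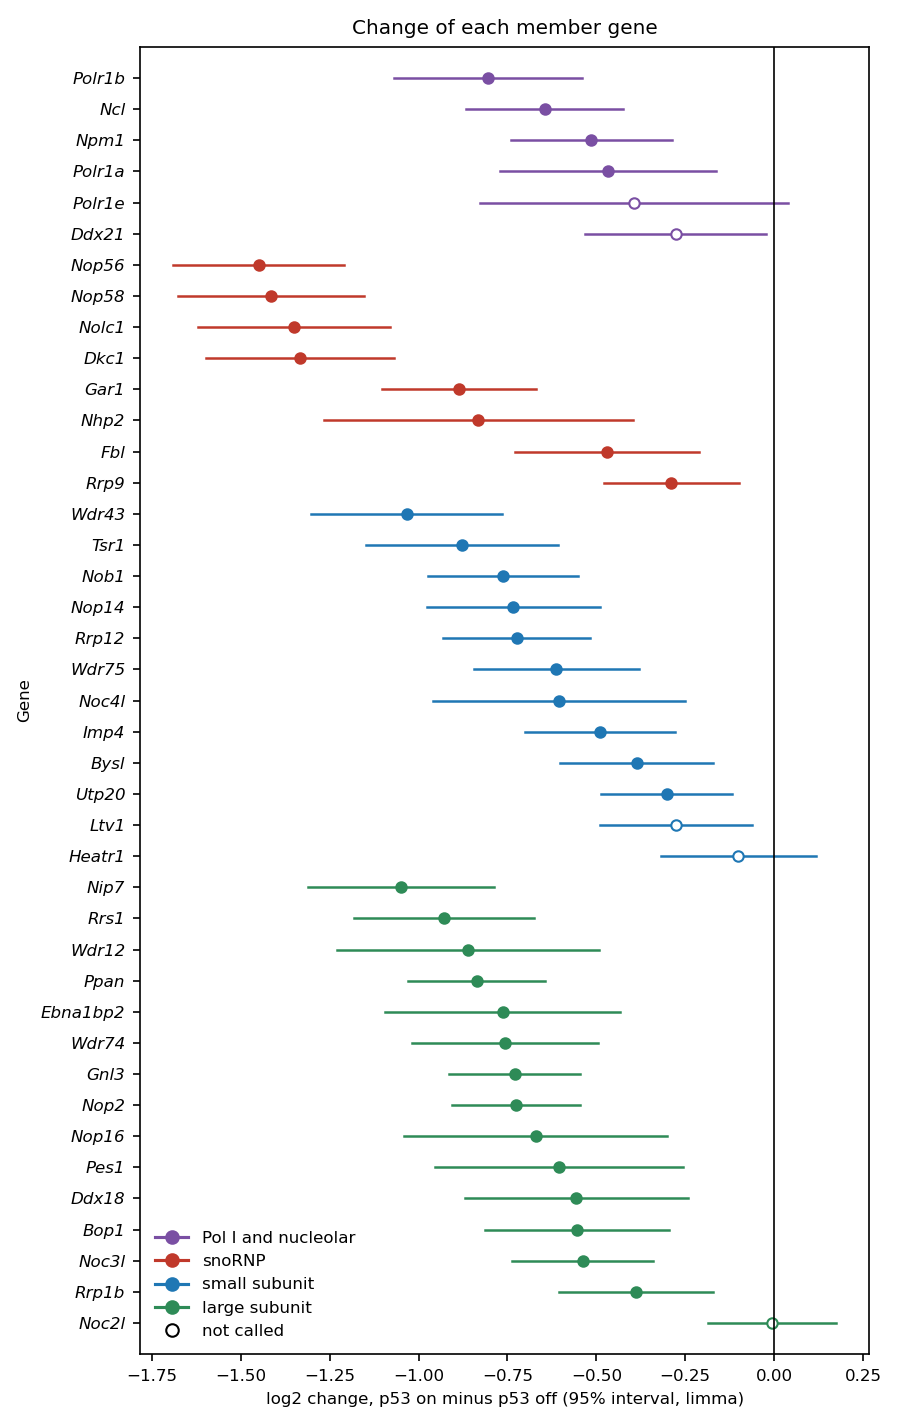
The horizontal axis is the log2 change, p53 on minus p53 off, and each row is a member gene with its 95% limma interval. Colours mark the assembly steps, and open circles mark the 5 genes that were not called. All points lie below 0, from -1.45 for Nop56 to -0.01 for Noc2l, and the snoRNP genes reach furthest.

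Of the 6 genes of Pol I transcription and general nucleolar factors 4 fell, with a median of -0.49, the smallest of the 4 steps. Polr1b encodes the second largest Pol I subunit. It was at 7.77 and 7.90 in p53 on, against 8.52 and 8.75 in p53 off, and fell by 0.80 ± 0.11 (limma adjusted p = 0.00456). Polr1a, the largest subunit, was at 8.38 and 8.60 in p53 on and 8.84 and 9.08 in p53 off. Its fall of 0.47 ± 0.12 (limma adjusted p = 0.0384) rests on 1 of its 5 probe sets, since the other 4 changed by between -0.07 and 0.00. Polr1e, a Pol I subunit that helps it to start, was at 7.55 and 8.06 in p53 on and 8.17 and 8.23 in p53 off. It was not called, and the interval of its change ran from -0.83 to 0.04. The p53 on pair of Polr1e differed by more than the gap between the groups.

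Ncl encodes nucleolin, an abundant nucleolar RNA-binding protein, and was at 12.25 and 12.22 in p53 on, against 12.79 and 12.97 in p53 off. Its fall was 0.65 ± 0.089 (limma adjusted p = 0.00527). Of its other probe sets 3 fell as well, by 1.07, 1.07 and 0.45, and the dimmest changed by -0.14. Npm1, which encodes the nucleolar chaperone nucleophosmin, was at 13.08 and 12.89 in p53 on, against 13.51 and 13.48 in p53 off, and fell by 0.51 ± 0.090. A further Npm1 probe set fell by 0.86 ± 0.069. Ddx21, an RNA helicase of the nucleolus that also acts in transcription, had probe sets that differed. The brighter one was at 9.89 and 9.66 in p53 on and 10.03 and 10.07 in p53 off and was not called (limma adjusted p = 0.0996; interval of the change -0.53 to -0.02). The dimmer one was at 8.44 and 8.34 in p53 on and 9.13 and 9.48 in p53 off, and fell by 0.92 ± 0.13. Without either p53 off array the calls of Polr1a and Npm1 were lost, leaving 2 of 6, and that of Polr1a also with spike-in scaling, without p53 on replicate 1 and with a gene's probe sets averaged. Ddx21 was called without p53 on replicate 1, with median centring and with averaged probe sets, and Polr1e without p53 on replicate 2.

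Small subunit assembly genes fell in 10 of 12 cases, with a median of -0.61. Wdr43, a protein of the early subcomplex that first binds the precursor, was at 9.62 and 9.53 in p53 on, against 10.48 and 10.73 in p53 off. Its fall of 1.03 ± 0.11 (limma adjusted p = 0.00227) was the largest of the step, and its other probe set fell by 0.72 ± 0.086. Tsr1, which acts on late precursors of the small subunit, was at 10.29 and 10.53 in p53 on, against 11.23 and 11.34 in p53 off, and fell by 0.88 ± 0.11. Nob1 encodes the nuclease that makes the final 3′ end of 18S ribosomal RNA. It was at 9.43 and 9.49 in p53 on, against 10.15 and 10.29 in p53 off, and fell by 0.76 ± 0.084 (limma adjusted p = 0.00267). For these 3 genes the groups lay far apart next to the spread within a pair. Nop14 and Rrp12, assembly factors of the pre-ribosome, changed by -0.73 ± 0.097 and -0.72 ± 0.083.

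Smaller falls were found for Wdr75, another early binding protein, at -0.61 ± 0.092, for Noc4l at -0.61 ± 0.14, for the U3 snoRNP protein Imp4 at -0.49 ± 0.084, for Bysl at -0.39 ± 0.086 and for Utp20 at -0.30 ± 0.074. All 4 probe sets of Noc4l fell, by 0.34 to 1.08. By contrast 1 of the 3 probe sets of Imp4 fell and the other 2 changed by -0.06 and 0.15. Heatr1, a large protein of the early subcomplex that is also needed for Pol I transcription, was at 9.71 and 9.87 in p53 on and 9.86 and 9.92 in p53 off. It was not called, the groups overlapped, and the interval of its change ran from -0.32 to 0.12. Its other probe sets changed by 0.18 and 0.05, and 0 of its 3 were called. Ltv1, which leaves the small subunit late in its assembly, was at 9.38 and 9.52 in p53 on and 9.69 and 9.76 in p53 off (limma adjusted p = 0.0641; interval -0.49 to -0.06). The calls of Utp20, Imp4 and Bysl were lost without p53 off replicate 1 and, with those of Wdr75 and Noc4l, without p53 off replicate 2, which left 5 of 12. Without p53 on replicate 1 Utp20, Noc4l and Bysl lost theirs, and Utp20 did so also without p53 on replicate 2 and with the replicate number as a block. Utp20 and Bysl lost theirs with spike-in scaling, Imp4 lost its call with averaged probe sets, and Ltv1 was called without p53 on replicate 2 and with median centring.

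Large subunit assembly genes fell in 14 of 15 cases, with a median of -0.73. Nip7, which acts in the maturation of the large subunit RNA, was at 9.78 and 10.02 in p53 on, against 10.92 and 10.99 in p53 off. It fell by 1.05 ± 0.10 (limma adjusted p = 0.0020), while a dimmer probe set changed by 0.30 and was not called. Rrs1, which brings the 5S RNA particle to the pre-ribosome, was at 10.60 and 10.82 in p53 on, against 11.59 and 11.69 in p53 off, and fell by 0.93 ± 0.10. Ppan was at 8.47 and 8.57 in p53 on, against 9.37 and 9.34 in p53 off, a fall of 0.84 ± 0.077. Nop2, an RNA methyltransferase long used as a proliferation marker, was at 9.67 and 9.72 in p53 on, against 10.42 and 10.42 in p53 off. Its fall of 0.73 ± 0.072 (limma adjusted p = 0.00202) came with nearly equal arrays within each group. Gnl3 encodes nucleostemin, a nucleolar GTPase of stem and tumor cells that can bind MDM2. It was at 10.21 and 10.28 in p53 on, against 10.97 and 10.98 in p53 off, and fell by 0.73 ± 0.073.

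Pes1, Bop1 and Wdr12 form the PeBoW complex, which is needed to process the RNA of the large subunit. All 3 fell. Wdr12 was at 8.89 and 9.32 in p53 on, against 9.97 and 9.97 in p53 off (change -0.86 ± 0.15). Pes1 was at 9.74 and 10.11 in p53 on, against 10.47 and 10.59 in p53 off (change -0.60 ± 0.14). Bop1 was at 9.12 and 9.37 in p53 on, against 9.79 and 9.81 in p53 off (change -0.56 ± 0.10). In the brightest probe set of each of the 3 genes p53 on replicate 1 was the lowest array. The falls rest on these brightest probe sets. None of the dimmer ones was called, with changes of -0.05 for Bop1, -0.25 for Pes1 and -0.46 and -0.12 for Wdr12. The remaining genes that fell were Ebna1bp2 (-0.76 ± 0.13), Wdr74 (-0.76 ± 0.10), Nop16 (-0.67 ± 0.15), the helicase gene Ddx18 (-0.56 ± 0.13), Noc3l (-0.54 ± 0.079) and Rrp1b (-0.39 ± 0.087). Dimmer probe sets of Ebna1bp2 (-0.07 and 0.07) and Nop16 (0.05) were not called. For Ddx18 and Rrp1b a further probe set fell (-0.69 and -0.34) and another was not called (-0.13 and -0.14). The dimmer one of Noc3l fell by 0.37. Noc2l, whose product also binds p53 and histones, had a brighter probe set at 9.02 and 9.00 in p53 on and 9.04 and 9.00 in p53 off, with an interval of the change from -0.19 to 0.17. Its dimmer probe set was at 8.13 and 8.39 in p53 on, against 8.78 and 8.89 in p53 off, and fell by 0.57 ± 0.11 (limma adjusted p = 0.0175 over all probe sets). Without p53 off replicate 1 Bop1, Pes1, Wdr12, Nop16 and Rrp1b lost their calls, which left 9 of 15. Without p53 off replicate 2 Noc3l, Ddx18 and Ebna1bp2 lost theirs in addition, which left 6. Bop1, Nop16 and Ebna1bp2 lost their calls with averaged probe sets, and Rrp1b with spike-in scaling and without p53 on replicate 1. Noc2l was called with averaged probe sets.

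The probe sets of a gene did not always move alike. In a fit of all 45037 probe sets, 59 of the 85 member probe sets fell, against 11.5% of all probe sets, and 0 rose. Of the 28 genes with more than 1 probe set, 12 had every probe set lower. The calls differed with the level of the probe set. Of 21 member probe sets with a mean under 8, 3 fell, against 4.53% of all probe sets that dim, while 56 of the 64 brighter ones fell, against 22.4% of all bright ones. Only Polr1e, Heatr1 and Ltv1 had no probe set that was called in this fit. The count of 59 was 32 without p53 off replicate 2.

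**Figure D3:**
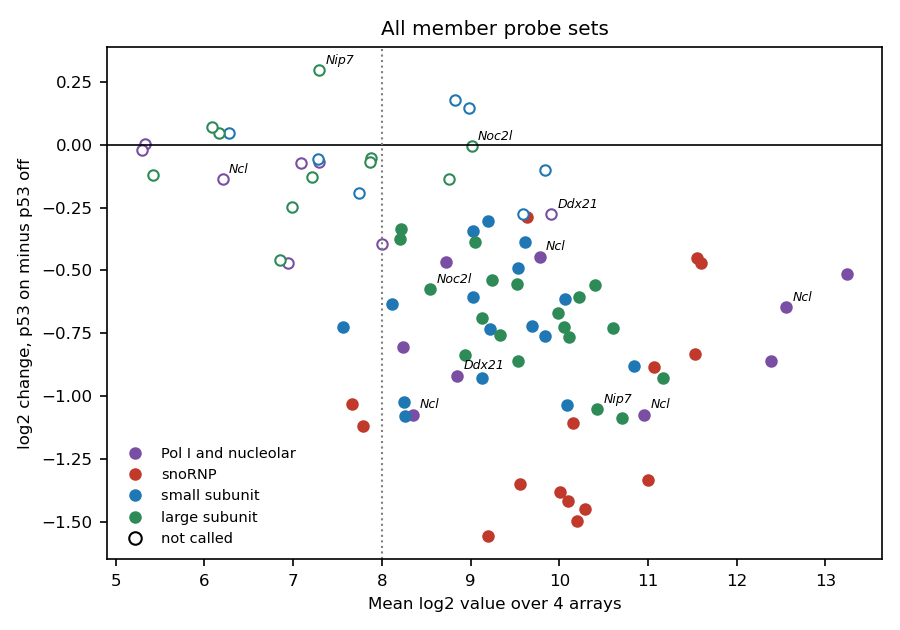
Each point is 1 of the 85 member probe sets, with its mean log2 value over the 4 arrays on the horizontal axis and its log2 change, p53 on minus p53 off, on the vertical axis. Filled circles were called and open ones were not, colours mark the assembly steps, and the dotted line is at a mean of 8. Left of the line 3 of 21 points are filled and right of it 56 of 64.

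Other genes of the pathway were listed by role. Of 115 measured genes for other Pol I, snoRNP, small subunit, large subunit and exosome factors 69 fell (60.0%), against 14.7% of all genes, and 0 rose, with a median of -0.42. That count was 43 without p53 off replicate 1 and 27 without p53 off replicate 2. Among them 20 of 36 small subunit factors fell, led by the kinase gene Riok2 (-1.50 ± 0.095), Wdr36 (-1.26 ± 0.14) and Pno1 (-1.0 ± 0.12), and 13 or 6 did so without p53 off replicate 1 or 2. Of 40 large subunit factors 27 fell, with Las1l, which acts in cutting the spacer between the large subunit RNAs, at -1.27 ± 0.11, the RNA methyltransferase gene Ftsj3 at -1.07 ± 0.091 and the helicase gene Ddx27 at -0.99 ± 0.14. Without p53 off replicate 1 or 2 that count was 15 or 11. Of 15 genes of the exosome and of RNA trimming 11 fell, among them Exosc9 (-0.88 ± 0.096), the nuclease gene Dis3 (-0.85 ± 0.096) and Exosc1 (-0.83 ± 0.087). The exosome count was 5 or 3 without p53 off replicate 1 or 2, 7 without p53 on replicate 1 and 6 with spike-in scaling. The median of 11 other snoRNP and assembly genes was -0.44. It was -0.42 for these small subunit and -0.49 for these large subunit factors. Of the 11 snoRNP assembly genes 6 fell, including the paired ATPase genes Ruvbl1 (-0.95 ± 0.15) and Ruvbl2 (-0.88 ± 0.096) and Znhit6 (-0.67 ± 0.080). This count was 4 without p53 off replicate 2, without p53 on replicate 1 and with spike-in scaling. The list of other Pol I factors had 5 of 13 lower, led by Cavin1 (-0.93 ± 0.11), a gene named for the release of Pol I transcripts that also builds caveolae, Taf1d (-0.83 ± 0.11), which is part of the Pol I initiation factor, and Polr1c (-0.69 ± 0.10), a subunit shared with Pol III. It was 3 of 13 without p53 off replicate 2.

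Genes of the finished ribosome had another pattern. Of 44 measured cytosolic ribosomal protein genes 3 fell (6.82%), against 14.7% of all genes, and 0 rose, with a median of 0.00. Of the 44, 22 had a change below 0. At an unadjusted p under 0.05 the counts were 3 lower and 0 higher. The 3 were Rpl12 (-1.01 ± 0.083), Rpl14 (-0.87 ± 0.13) and Rpl8 (-0.40 ± 0.082). Rpl12 and Rpl14 were read through far dimmer probe sets (means of 9.28 and 7.96 in p53 on, and 10.29 and 8.84 in p53 off) than most of the list. A mean of at least 13 was reached by 35 of the 44, near the top of the scale, and 1 of these 35 fell. Their changes ran from -0.40 to 0.31. Of the 79 genes listed, those without a probe set annotated to 1 symbol have no value here. With spike-in scaling the list's median was 0.13, as was the shift of the median of all genes. Without p53 off replicate 2 its count of 3 was 1, and it was 6 of 39 over probe sets without a mark of likely cross-hybridization. The share of 6 of 39 is not below 14.7%. Whether the bright end of the scale has a part in the pattern of this list was not tested.

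Of 74 mitochondrial ribosomal protein genes 25 fell (33.8%), against 14.7% of all genes, and 1 rose, with a median of -0.28. The count that fell was 15 or 6 without p53 off replicate 1 or 2, 39 without p53 on replicate 2 and 38 with median centring. They include Mrpl45 (-0.95 ± 0.14), Mrps22 (-0.89 ± 0.12) and Mrps5 (-0.89 ± 0.083), and Mrpl4 rose by 0.41 ± 0.089. Of 11 noncoding genes that carry snoRNAs in their introns 6 fell (54.5%), led by Snhg6 (-1.15 ± 0.15), Snhg5 (-0.97 ± 0.10) and Snhg1 (-0.72 ± 0.11), and Snhg18 rose by 0.77 ± 0.088. Without p53 off replicate 1 the fallen ones were 3. RNA polymerase III, which makes 5S ribosomal RNA and tRNAs, had 4 of 13 genes lower (30.8%, against 14.7% of all genes) and 1 higher. The 4 were 2 or 1 without p53 off replicate 1 or 2. Its alternative subunits moved apart. Polr3g was at 6.83 and 6.92 in p53 on, against 7.79 and 7.70 in p53 off (change -0.87 ± 0.081). Its paralog Polr3gl was at 8.72 and 8.88 in p53 on, against 8.13 and 8.21 in p53 off (change 0.63 ± 0.089).

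**Figure D4:**
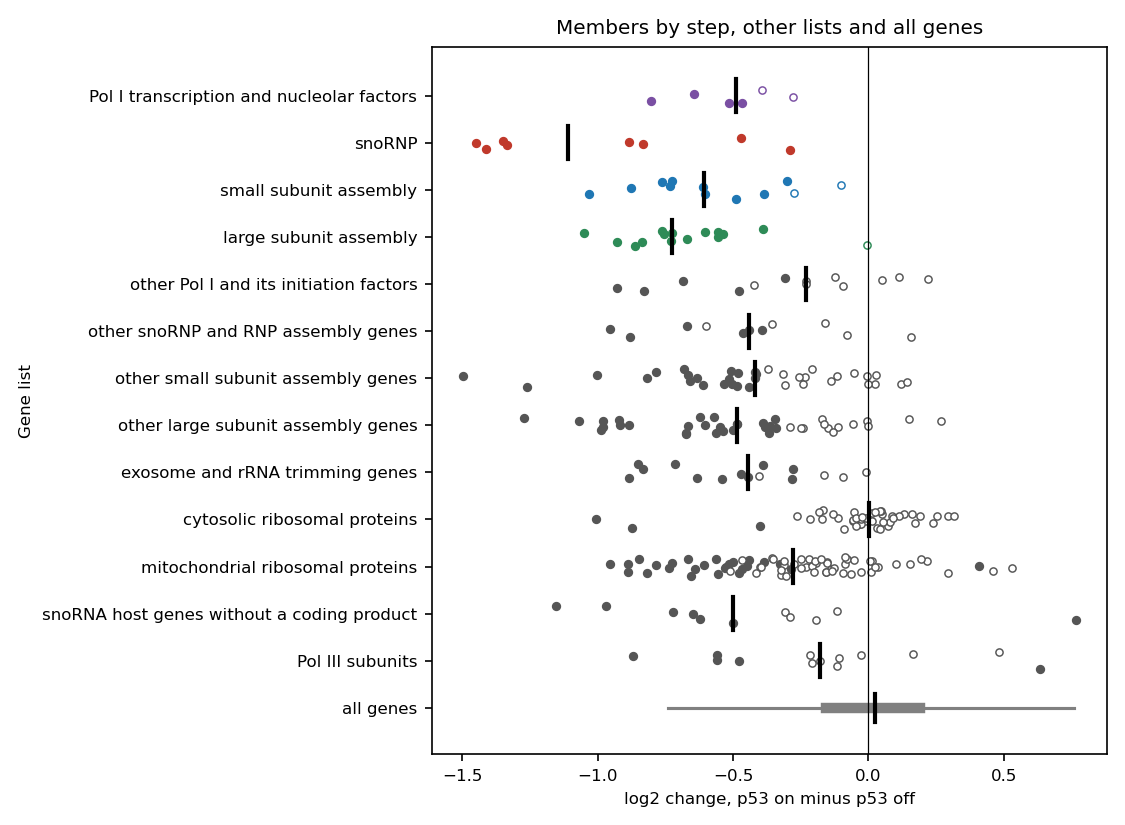
Each point is a gene, with its log2 change, p53 on minus p53 off, on the horizontal axis and its list on the vertical axis. Coloured points are the member genes by step and grey ones the other lists, filled points were called, and the black bars are medians. The bottom row gives all genes, with a thick line from the 25th to the 75th percentile and a thin line from the 5th to the 95th. The snoRNP median is at -1.11 and that of cytosolic ribosomal proteins at 0.00.

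Myc itself was at 9.64 and 9.77 in p53 on, against 11.16 and 11.21 in p53 off, and fell by 1.48 ± 0.082 (limma adjusted p = 0.000511). With 2 samples a group the data do not say whether the assembly genes follow it from sample to sample.

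Markers of several cell types also differed between the groups, some lists lower and others higher in p53 on. Of all genes 14.7% were lower and 14.0% higher. Markers of liver progenitor and epithelial cells fell in 5 of 7 cases and 1, Epcam, rose. Their summed linear level was 17709 and 16714 in p53 on, against 39369 and 45425 in p53 off. Fibroblast markers rose in 8 of 8 cases (sums of 89778 and 91526 in p53 on, against 54049 and 47159 in p53 off). Endothelial markers rose in 7 of 7 (6574 and 7659 in p53 on, against 3773 and 3852 in p53 off) and macrophage markers in 5 of 8 (32390 and 27189 in p53 on, against 15730 and 17228 in p53 off). Lymphocyte markers had 1 of 5 higher, at sums of 714 and 733 in p53 on and 607 and 634 in p53 off. The same sum over the 41 ribosome assembly genes was 43816 and 46502 in p53 on, against 71186 and 75302 in p53 off. In such bulk samples fewer tumor cells and less RNA of a gene per cell cannot be told apart, and the part of these cell types in the result was not tested. Of the hepatocyte markers 1 of 7, Hnf4a, fell (14.3%, near the share of all genes). Their sums were 2581 and 1867 in p53 on, against 2206 and 2124 in p53 off. Albumin was at 7.39 and 6.96 in p53 on and 7.07 and 7.06 in p53 off, near the median of each array. Values on this scale have no 0, so no marker can be called absent.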

How the data were processed

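Values were used as deposited, on the log2 scale. The submitters' processing notes name RMA, a method that corrects background, equalises the arrays by quantiles and sums up the probes, and limma 3.14.4. The values carry no detection call, and with 4 arrays precision is low. Of 45101 probe sets, 64 were controls and 34945 had exactly 1 gene symbol in the platform annotation, which was matched to RefSeq gene IDs (GRCm38.p6) with 0 symbols updated. The brightest such probe set stood for each gene. Changes are p53 on minus p53 off, from limma 3.58.1 under R 4.3.3 (functions lmFit and eBayes), over all 18193 genes, and separately over all 45037 probe sets, with 2 residual and 5.47 moderated degrees of freedom. The fit was checked on simulated data. Errors are moderated SE and n is 2 arrays per group. No permutation test of 2 against 2 arrays can reach the threshold.

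The members, their steps and the lists were chosen with earlier results of these data known. The named genes are all members, up to 3 called genes with the largest fall and up to 3 with the largest rise in each other list, Myc, Cdkn1a, and markers where a value was needed beside a result. Same-numbered arrays deviated from their group means with r = -0.15 across genes. With so few arrays in a group, this correlation cannot show whether the replicate numbers pair the samples. The main fit treated the samples as unpaired. The alternatives were the replicate number as a block, quantile normalization, median centring, spike-in scaling (18 hybridization control probe sets), leaving out the dimmest 40% of genes (40 of the 41 members stayed), the mean of all probe sets, probe sets without a mark of cross-hybridization, trend and robust eBayes, and leaving out each array. Figures were drawn with matplotlib 3.10.9.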

Additional observations from a re-analysis of the deposited data

How the results depend on the processing

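Of the 36 members that fell, 18 were called in each of the 12 alternative settings in which they were measured (Polr1b, Ncl, Nop56, Nop58, Dkc1, Gar1, Nolc1, Wdr43, Nop14, Rrp12, Nob1, Tsr1, Nop2, Rrs1, Wdr74, Gnl3, Nip7 and Ppan), and 39 of 41 members had a negative change in all of them. Heatr1 changed sign with spike-in scaling (0.030) and when a gene's probe sets were averaged (0.042), and Noc2l with spike-in scaling (0.13), without p53 off replicate 1 (0.014) and without p53 on replicate 2 (0.0069), none of these called. With the replicate number as a block 34 members, 55 member probe sets and 4323 genes were called, against 36, 59 and 5223. A crossed block, added after seeing the data because of the negative correlation of same-numbered arrays, gave 26 members (3 of Pol I and nucleolar factors, 6 of snoRNPs, 7 of the small subunit and 10 of the large subunit), 42 member probe sets, 3954 genes and 6 exosome and trimming genes, against 11. Spike-in scaling moved the median change of the members to -0.54 and that of cytosolic ribosomal proteins to 0.13, a shift of 0.13 that it gave to all genes. Probe sets without a cross-hybridization mark gave 6 lower cytosolic ribosomal protein genes, against 3. Leaving out each array in turn gave between 18 and 36 members, between 2228 and 5055 genes and between 32 and 56 member probe sets. By step the counts lay between 2 and 5 for Pol I and nucleolar factors, 5 and 7 for snoRNPs, 5 and 10 for the small subunit, 6 and 14 for the large subunit, and 1 and 3 for cytosolic ribosomal proteins. The median change of the members lay between -0.75 and -0.60, and that of cytosolic ribosomal proteins between -0.026 and 0.041. The low counts came without a p53 off array, where the spread rests on the p53 on pair (SD of its difference 0.231, against 0.160 within p53 off).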

Other observations

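The array carries control probe sets for 18S ribosomal RNA, the mature product of small subunit assembly. The 3′ probe set was at 13.33 and 13.44 in p53 on and 13.39 and 13.44 in p53 off. The 5′ one was at 14.16 and 13.90 in p53 on and 13.81 and 14.07 in p53 off. The middle one was at 13.18 and 13.33 in p53 on and 13.23 and 13.50 in p53 off. The groups overlapped for each of the 3 probe sets. The RNA was amplified by a method that primes on poly(A) tails, which ribosomal RNA lacks, so these values do not measure the amount of ribosomes.

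Within p53 on, 2 liver genes differed widely between the arrays. Cyp2e1, an enzyme gene of mature hepatocytes, was at 9.71 and 7.39 in p53 on, against 7.27 and 7.24 in p53 off. Afp, the fetal albumin-like gene, was at 8.47 and 5.33 in p53 on, against 9.16 and 9.15 in p53 off. Neither was called, and both were picked after their values were seen.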
